A study of Mus musculus with 4 samples.

Results

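The tubulin genes described here were 10 protein-coding mouse genes: the α-tubulin genes Tuba1a, Tuba1b, Tuba1c, Tuba3a, Tuba3b, Tuba4a and Tuba8, the β-tubulin genes Tubb4b and Tubb5, and the γ-tubulin gene Tubg1. A read cluster, a stretch of RNA on which sequenced fragments piled up, was assigned to a tubulin gene when its centre lay inside the span of that gene on the strand of that gene (GENCODE release M21, genome build mm10). All 10 genes had clusters, among 14,589 protein-coding genes with a cluster in either replicate. They held 105 of 337,234 clusters in replicate 1 and 91 of 216,354 clusters in replicate 2.

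The clusters came from eCLIP-seq, in which RNA crosslinked to a protein is pulled down with an antibody and sequenced. Testes of wild-type C57BL/6 mice aged 8 weeks were used, and the RNA-binding protein IGF2BP3 was immunoprecipitated (IP) in 2 replicates. Each IP was set against its own size-matched input (SMInput), taken from 2% of the same lysate before the pull-down. Library sizes, inferred here from the listed ratios, were 5,133,438 IP and 8,706,391 SMInput reads in replicate 1, and 4,637,612 and 16,696,122 in replicate 2. Whole testis holds germ cells and somatic cells, and fewer cells of a type and less RNA per cell cannot be told apart in such a sample. Clusters lay on 6 of 6 germ cell marker genes and on 4 of 4 somatic cell marker genes in both replicates.

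Microtubules are hollow filaments built from dimers of α-tubulin and β-tubulin, and γ-tubulin sits in the ring complex from which new filaments grow. In the testis they form the meiotic spindle, the manchette that shapes the head of the elongating spermatid and the axoneme of the sperm tail. The genes of a tubulin class encode nearly the same protein, so their coding sequences share long stretches, while the untranslated regions (UTRs) on either side of the coding sequence (CDS) differ more.

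Each cluster carried a log2(fold change), the log2 ratio of IP over SMInput reads after scaling to library size, and a −log10(P value) of that ratio within its replicate. A cluster was called significant when both values were at least 2, which is a 4-fold enrichment on the first scale. In replicate 1, 6 of 105 tubulin clusters were significant (5.71%), beside 4.92% of all clusters. In replicate 2, 13 of 91 were significant (14.3%), beside 13.2% of all clusters. Among clusters with the centre in an exon, 6 of 99 tubulin clusters in replicate 1 (6.06%) stood beside 8.74% of all exonic clusters of protein-coding genes, and 13 of 89 in replicate 2 (14.6%) beside 15.0%. Over all regions the tubulin shares were thus close to those of the whole tables, while the regions differed among themselves and are given further on.

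Counted by gene, 4 of the 10 tubulin genes (40.0%) had a significant cluster in both replicates, beside 39.1% of the protein-coding genes with clusters in both. These were Tuba1a, Tuba3b, Tuba8 and Tubb4b. By the same rule 2 of the 6 germ cell markers and 0 of the 4 somatic cell markers were significant in both. With replicate 1 alone 4 of the 10 tubulin genes had a significant cluster, beside 40.8% of the protein-coding genes with a cluster in it, and with replicate 2 alone 8 of the 10 did, beside 62.8%. Tuba3a and Tubg1 had none in either. When significant clusters were joined wherever they overlapped, the tubulin genes held 15 stretches, and 2 of them (13.3%) contained overlapping significant clusters of both replicates, beside 10.7% of such stretches of all genes. Replicate 1 alone gave 6 and replicate 2 alone 13 tubulin stretches. When the reads of overlapping tubulin clusters were instead pooled with the replicate as a block, 5 stretches passed both thresholds, 2 in Tubb4b and 1 each in Tuba1a, Tuba1b and Tuba1c. This looser call was made for tubulin clusters only, so how often other genes would pass it is not known. Both stretches shared by separate calls lay in Tubb4b, so the remaining 3 genes of the 4 carried their significant clusters at different places in the 2 replicates.

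Most tubulin clusters fell short of one threshold or the other, as did most of all clusters, of which 4.92% and 13.2% were significant. The −log10(P value) reached 2 in 44 tubulin clusters of replicate 1 and 57 of replicate 2, while the log2(fold change) reached 2 in 18 and 17. The shares of all clusters that reached each threshold alone were not computed, so these counts do not set the tubulin clusters apart. The median log2(fold change) of exonic tubulin clusters was 1.24 in replicate 1 and 1.24 in replicate 2, beside 1.08 and 1.20 for exonic clusters of all protein-coding genes. The usual tubulin cluster was therefore enriched over SMInput by less than the 4-fold threshold. Among the 19 significant clusters of both replicates, the number of IP reads ran from 6 to 90. The lower bound of the exact 95% interval of the log2 ratio, which covers counting error only, lay above 2 for 1 of the 19.

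**Figure D1:**
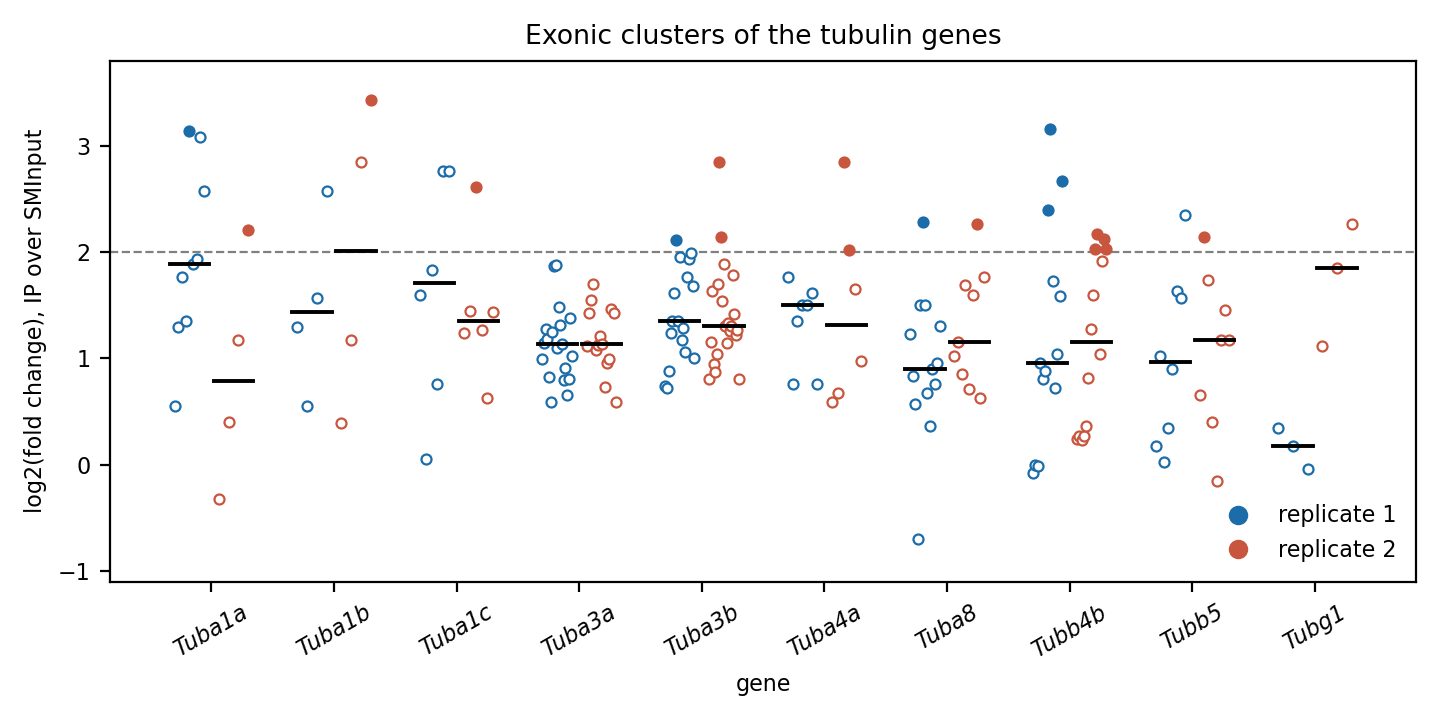
Log2(fold change) of IP over SMInput for each exonic cluster of the 10 tubulin genes in replicate 1 (blue) and replicate 2 (red); filled points are significant, black bars are medians and the dashed line is the threshold of 2. The filled points number 6 in replicate 1 and 13 in replicate 2, and Tuba3a and Tubg1 have none.

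Of the α-tubulins, Tuba3a and Tuba3b encode the form known for its expression in testis. They carried many clusters, 19 and 14 for Tuba3a in replicates 1 and 2 and 17 and 21 for Tuba3b. In Tuba3a the −log10(P value) reached 2 in 14 of 19 and 12 of 14 clusters, yet the log2(fold change) ran only from 0.59 to 1.87 in replicate 1 and from 0.59 to 1.70 in replicate 2. Most Tuba3a clusters thus passed by P value, and all of them missed the fold change threshold. The Tuba3a cluster with most IP reads in replicate 1, in the CDS at chr6:125281129-125281268, held 138 IP and 84 SMInput reads and had a log2(fold change) of 1.48. The matching cluster of replicate 2, chr6:125281097-125281250, held 78 IP and 145 SMInput reads, with a log2(fold change) of 0.95. Enrichment of the Tuba3a mRNA was thus moderate, spread over the CDS and without a single high site.

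Tuba3b showed the same spread with a few clusters above it. The −log10(P value) reached 2 in 16 of 17 and 21 of 21 clusters, and the median log2(fold change) was 1.35 and 1.30, against 1.13 and 1.13 for Tuba3a. The significant cluster of replicate 1 was a stretch of 20 bases in exon 3, chr6:145618786-145618805, with a log2(fold change) of 2.11 from 56 IP and 22 SMInput reads. The cluster of replicate 2 at the same place, chr6:145618779-145618804, reached 1.70 and was not significant. In replicate 2 the highest value of Tuba3b was 2.85, at chr6:145618845-145618865 further along exon 3, from 34 IP and 17 SMInput reads (95% interval 1.97 to 3.78), and its 21 bases occur at 1 other place in the genome. Its other significant cluster, 15 bases at the start of exon 4 (chr6:145619185-145619199), had a log2(fold change) of 2.14, and the 50 bases around it occur without a mismatch in Tuba3a too. Significant stretches of Tuba3b were therefore short and differed in place between the replicates. Without clusters whose whole sequence has a copy elsewhere, Tuba3b had no significant cluster in replicate 2 and was no longer among the genes significant in both, while by 50-base copies it remained.

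Tuba8 encodes an α-tubulin that departs more from the rest of its class. It had 17 clusters in replicate 1, of which 4 lay in introns, and 9 in replicate 2, with exonic medians of 0.90 and 1.15. The significant cluster of replicate 1, chr6:121222743-121222840 in exon 4, had a log2(fold change) of 2.29 from 23 IP and 8 SMInput reads. The cluster of replicate 2 over the same bases, chr6:121222754-121222883, had a −log10(P value) of 5.02 but a log2(fold change) of 1.69. In replicate 2 the significant cluster lay further along exon 4, at chr6:121223301-121223376, with a log2(fold change) of 2.26 from 12 IP and 9 SMInput reads. Tuba8 counts among the genes significant in both replicates, but through separate places.

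Tuba1a, Tuba1b and Tuba1c, neighbours on chromosome 15, encode the α-tubulins of many cell types. Tuba1a had the largest gap between replicates among them, with 9 clusters and a median log2(fold change) of 1.89 in replicate 1 and 4 clusters and a median of 0.79 in replicate 2. Its significant cluster in replicate 1, chr15:98950676-98950809 in the CDS, had a log2(fold change) of 3.14 from 26 IP and 5 SMInput reads, with a 95% interval from 1.74 to 4.88. Replicate 2 had no cluster over these bases. There the significant cluster of Tuba1a was chr15:98949928-98950101, centred in the 3′UTR, with a log2(fold change) of 2.21 from 9 IP and 7 SMInput reads. Replicate 1 had clusters over part of these bases, none of them significant. At chr15:98950044-98950096 the log2(fold change) was 1.93, from 9 IP and 4 SMInput reads. At chr15:98949946-98949948, 3 bases long, it was 3.08, from 5 IP and 1 SMInput reads. The annotated protein-coding gene Gm49450 spans every Tuba1a cluster on the same strand, so the rule could not assign these reads to Tuba1a alone.

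Tuba1b had no significant cluster in replicate 1, where its clusters held at most 13 IP reads. In replicate 2 a cluster across its stop codon, chr15:98931556-98931642, had the highest log2(fold change) of the 10 genes, 3.43, from 6 IP and 2 SMInput reads. The 95% interval of that ratio ran from 0.95 to 6.77, so its height was poorly fixed. The 50 bases at its centre also occur once elsewhere in the genome, inside the spans of Gm3226 and Il31ra. In replicate 1 an overlapping cluster centred in the 3′UTR, chr15:98931541-98931597, had a log2(fold change) of 2.57 from 7 IP and 2 SMInput reads. Its −log10(P value) was 1.80, so it was not significant. Gm49450 also spans some of the other Tuba1b clusters on the same strand, none of them significant.

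Tuba1c was the tubulin gene with a significant cluster centred in the 5′UTR. In replicate 2 this cluster, chr15:99030327-99030425, had a log2(fold change) of 2.61 and a −log10(P value) of 7.90 from 22 IP and 13 SMInput reads (95% interval 1.55 to 3.72). In replicate 1 a cluster over nearly the same bases, chr15:99030332-99030422, reached 1.83 from 23 IP and 11 SMInput reads and was not significant. The Tuba1c cluster with most IP reads in replicate 1, chr15:99030028-99030201, also lay in the 5′UTR, with 32 IP and 18 SMInput reads and a log2(fold change) of 1.59. Both replicates thus had their best covered Tuba1c clusters ahead of the start codon, in exon 1.

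Tuba4a, whose product lacks the encoded C-terminal tyrosine of most α-tubulins, had 7 and 6 clusters, all of them in the CDS and none with more than 12 IP reads. In replicate 1 the cluster with most IP reads, chr1:75215639-75215756, held 12 IP and 12 SMInput reads, a log2(fold change) of 0.76. In replicate 2 the higher of its 2 significant clusters, chr1:75216831-75216875, had a log2(fold change) of 2.85 from 6 IP and 3 SMInput reads. In replicate 1 a cluster over part of these bases, chr1:75216825-75216851, had a log2(fold change) of 1.35 from 6 IP and 4 SMInput reads. A difference between the replicates of Tuba4a was not tested.

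Of the β-tubulins, Tubb4b encodes the form prominent in cilia and flagella. It was the tubulin gene with the most significant clusters, 3 of 13 in replicate 1 and 4 of 14 in replicate 2. All 7 lay in exon 4, the last exon. They formed 3 stretches: 1 inside the CDS, 1 across the stop codon and 1 in the 3′UTR.

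The CDS stretch of Tubb4b, chr2:25223168-25223289 on the minus strand, held 2 adjoining significant clusters in each replicate. In replicate 1 the longer of them, chr2:25223184-25223282, had a log2(fold change) of 2.40 and a −log10(P value) of 17.1, from 90 IP and 29 SMInput reads (95% interval 1.78 to 3.05). In replicate 2 its counterpart, chr2:25223183-25223289, had a log2(fold change) of 2.03 and a −log10(P value) of 18.9, from 77 IP and 68 SMInput reads (1.54 to 2.52). The boundaries of the 2 calls thus lay within a few bases of each other and their intervals overlapped. Directly downstream, the shorter cluster reached 3.15 in replicate 1 (chr2:25223168-25223183, 42 IP and 8 SMInput reads, 95% interval 2.05 to 4.46) and 2.17 in replicate 2 (chr2:25223171-25223182, 25 IP and 20 SMInput reads, 1.26 to 3.09). The value of 3.15 was the highest of any tubulin cluster in replicate 1, and its interval was the 1 that lay wholly above 2. These short clusters are not unique in sequence: the 16 bases of replicate 1 occur at 1 other place in the genome and the 12 bases of replicate 2 at 224.

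The 3′UTR stretch of Tubb4b was shared by the replicates in the same way. In replicate 1 the cluster chr2:25222192-25222259 had a log2(fold change) of 2.67 and a −log10(P value) of 13.0, from 60 IP and 16 SMInput reads (95% interval 1.85 to 3.56). In replicate 2 the cluster chr2:25222200-25222257 had 2.03 and 8.53, from 34 IP and 30 SMInput reads (1.28 to 2.79). Across the stop codon, the cluster chr2:25222291-25222358 was significant in replicate 2, at 2.13 from 40 IP and 33 SMInput reads, while in replicate 1 the cluster chr2:25222295-25222342 reached 1.59 from 39 IP and 22 SMInput reads. The stop codon differed between replicates by call, but the 95% intervals, 0.80 to 2.41 in replicate 1 and 1.42 to 2.84 in replicate 2, overlapped. A 30-base piece from the middle of the shared 3′UTR stretch is shown because it is the tubulin 3′UTR site that both replicates called (chr2:25222211-25222240, minus strand, mm10). It carries no capitals, since it held none of the motifs searched.
Tubb4b 3′UTR: ccatgtccactgtgcatttgctgtcctgtg

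The clusters in the first exons of Tubb4b had ratios close to those of the input. In replicate 1 the 3 clusters of exons 1 and 2 had log2(fold change) values of −0.08, −0.01 and −0.02, and their read numbers could not be recovered. In replicate 2 the 5 clusters there ran from 0.23 to 0.36, with 132 to 216 SMInput reads each. In exon 3 the values were 0.95 and 0.81 in replicate 1 and 0.82 and 1.28 in replicate 2. Enrichment then peaked in the CDS stretch of exon 4, fell to 0.72 at chr2:25222770-25222868 in replicate 1 and to 1.04 at chr2:25222768-25222857 in replicate 2, and came back near the stop codon. A low 5′ end, a CDS peak, a dip and a rise toward the 3′UTR were thus seen along Tubb4b in both replicates.

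**Figure D2:**
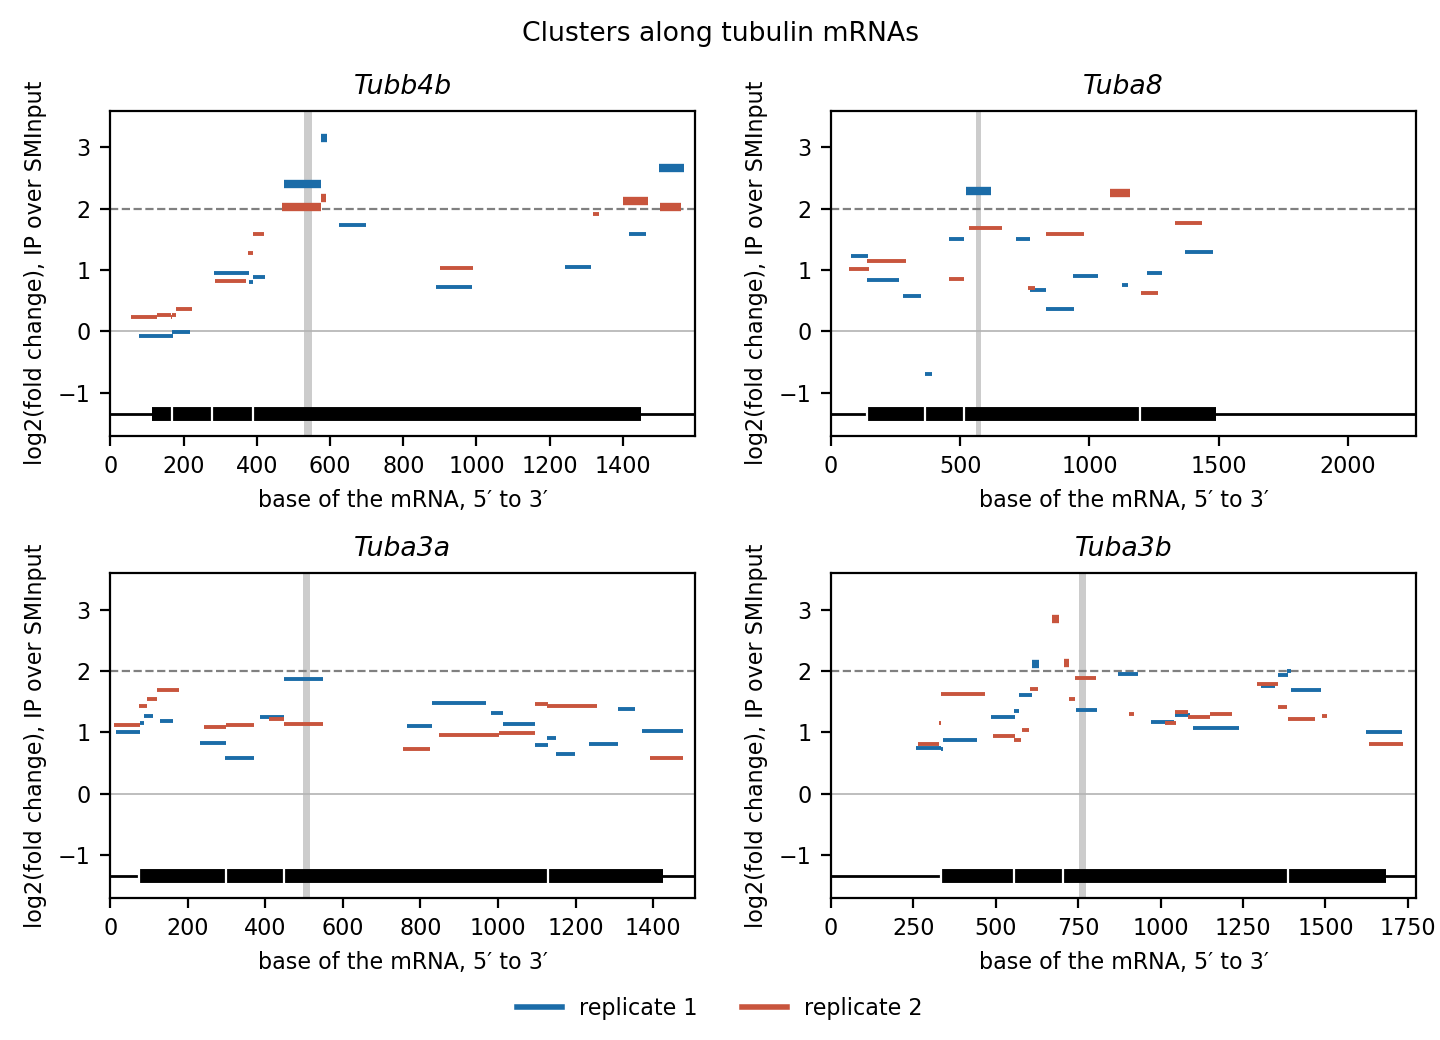
Log2(fold change) of IP over SMInput along the mRNAs of Tubb4b, Tuba8, Tuba3a and Tuba3b, in bases from the 5′ end. The other tubulin genes are not drawn. Each cluster is drawn over the bases it covered in replicate 1 (blue) and replicate 2 (red), and thick lines are significant clusters. The dashed line is the threshold of 2. The black bar is the CDS with its exon joins and the grey band marks the codons of the GTP-binding loop. In Tubb4b both replicates show significant clusters over the grey band and in the 3′UTR, while Tuba3a stays below the dashed line along its length.

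Among the protein-coding genes, 2,048 had at least 1 stretch with overlapping significant clusters of both replicates, beside 12,312 with clusters in both. Of the tubulin genes only Tubb4b had such a stretch. Tubb4b had 2 such stretches, 451 genes had more, and 424 genes, with Tubb4b among them, had 2. The Tubb4b pattern was the clearest within the tubulin genes and ordinary among the genes with shared stretches.

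The processed pseudogene Tubb4b-ps1 on chromosome 5 shares sequence with the CDS stretch of Tubb4b. The 50 bases at the centre of the longer CDS cluster occur in Tubb4b-ps1 without a mismatch in both replicates, while the full clusters, 99 and 107 bases long, occur nowhere else. Tubb4b-ps1 carried 3 clusters of its own in replicate 1 and 1 in replicate 2, and each was significant. The highest were chr5:7179739-7179796 in replicate 1, with a log2(fold change) of 4.67 from 15 IP and 1 SMInput reads, and chr5:7179650-7179841 in replicate 2, with 3.31 from 11 IP and 4 SMInput reads. Whether reads of the Tubb4b mRNA were placed on the pseudogene, or the reverse, was not tested. No copy of the 50 bases at the centre of the 3′UTR cluster of Tubb4b was found elsewhere in either replicate.

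Tubb5, a β-tubulin of dividing cells, had 8 clusters in each replicate. Its significant cluster, found in replicate 2, began in the 5′UTR and ran over the start codon in exon 1 (chr17:35837997-35838067), with a log2(fold change) of 2.14 from 11 IP and 9 SMInput reads. Replicate 1 had no cluster over the start codon of Tubb5. Its cluster with most recovered IP reads there lay in the 3′UTR, chr17:35834845-35834979, with 31 IP and 17 SMInput reads and a log2(fold change) of 1.63. The Tubb5 3′UTR cluster of replicate 2 at the same place, chr17:35834843-35834897, had 1.46. Tubb5 therefore shared moderate 3′UTR enrichment between replicates and did not share its significant call.

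Tubg1, the γ-tubulin gene, had 5 clusters in replicate 1 and 3 in replicate 2. Reads were recovered for 4 and 3 of them, none with more than 6 IP reads. In replicate 1 the cluster with most recovered IP reads, chr11:101120569-101120634, had a log2(fold change) of 0.18 from 6 IP and 9 SMInput reads. In replicate 2 the cluster chr11:101126346-101126384 in the 3′UTR had 2.26 from 4 IP and 3 SMInput reads, with a −log10(P value) of 1.35. Its exonic medians, 0.18 in replicate 1 and 1.85 in replicate 2, rested on 3 clusters each, and 2 of the 3 in replicate 2 lay in an intron of the coding transcript used for the regions and in an exon of another. Enrichment of Tubg1 was not detectable at this depth.

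By region, the coding sequence held most tubulin clusters, 82 of 99 exonic clusters in replicate 1 and 70 of 89 in replicate 2. In the CDS the tubulin median log2(fold change) was 1.17 and 1.26, against 0.76 and 0.94 for CDS clusters of all protein-coding genes, and 5 of 82 (6.10%) and 10 of 70 (14.3%) were significant, against 5.37% and 8.10%. The 3′UTRs held 7 tubulin clusters in each replicate, with medians of 2.57 and 1.46 against 1.76 and 1.92 for all genes. Here 1 of 7 and 2 of 7 tubulin clusters were significant, against 19.6% and 35.0% of all 3′UTR clusters. The 5′UTRs held 10 tubulin clusters in each replicate, with medians of 0.87 and 0.91 against 0.76 and 0.98 for all genes. Of these, 0 of 10 and 1 of 10 were significant, against 5.08% and 8.62% of all 5′UTR clusters. The CDS medians of the tubulins lay above those of all genes in both replicates. They weigh a gene by its number of clusters. Tuba3a, Tuba3b, Tubb4b and Tuba8 held 18, 16, 12 and 12 of the CDS clusters in replicate 1. In replicate 2 they held 12, 19, 12 and 8. The 5′UTR and 3′UTR medians did not keep 1 order. These differences were not tested.

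Tubulin clusters of one replicate were compared in place with those of the other. Of the exonic tubulin clusters, 79 of 99 in replicate 1 (79.8%) overlapped one of replicate 2, beside 48.2% of the exonic clusters of all protein-coding genes. In replicate 2, 74 of 89 (83.1%) overlapped one of replicate 1, beside 57.5%. Over the 95 overlapping pairs, which share genes and libraries and are not independent, Pearson's r of the log2(fold change) was 0.60 and Spearman's rho was 0.51. The value was higher in replicate 1 in 43 of the 95 pairs, and the median difference, replicate 1 minus replicate 2, was −0.08. The difference in overlap from all genes was not tested, and read numbers were not matched.

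The shared CDS stretch of Tubb4b and the significant Tuba8 cluster of replicate 1 had a feature in common that was looked for after their values were seen. Both lay over the codons of the glycine-rich loop that is the signature of the tubulin family and contacts the phosphates of the bound GTP. These 21 bases were found once in each of the 10 genes, in exon 4 of the 9 α- and β-tubulin genes and in exon 5 of Tubg1. Clusters covered them in 5 genes in replicate 1 (Tuba1c, Tuba3a, Tuba3b, Tuba8 and Tubb4b) and in 4 in replicate 2 (the same without Tuba1c). Their log2(fold change) was above the exonic median of the own gene in 5 of 5 and 4 of 4, though significant in 2 (Tuba8 and Tubb4b) and 1 (Tubb4b). These counts hold Tubb4b and Tuba8, whose values led to the loop. In Tuba3a the loop cluster had 1.87 in replicate 1, the highest of its 19, and 1.13 in replicate 2, barely above the median. In Tuba3b it had 1.36, also barely above the median, and 1.89, and in Tuba1c 2.76 from 4 IP and 1 SMInput reads, the same as a Tuba1c cluster in exon 3 and with a 95% interval from −0.57 to 8.38. The loop cluster alone was the highest exonic cluster of its gene in 2 genes in replicate 1, Tuba3a and Tuba8, and in none of the 4 in replicate 2. No test was made, since the loop was chosen from the same clusters.

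The loop codons of the 5 genes are shown because α- and β-tubulins had clusters over them, though not over these coding bases alone. Each line is 30 bases of the coding strand of mm10, 5′ to 3′, and capitals mark the 21 loop bases. The positions are chr2:25223203-25223232 for Tubb4b, chr6:121222778-121222807 for Tuba8, chr6:125281577-125281606 for Tuba3a, chr6:145619227-145619256 for Tuba3b and chr15:99037079-99037108 for Tuba1c.
Tubb4b loop: cctgGGTGGGGGGACTGGGTCTGGGatggg
Tuba8 loop: ctttGGTGGGGGCACAGGATCTGGCtttac
Tuba3a loop: ctttGGAGGAGGCACAGGGTCTGGGtttgc
Tuba3b loop: ctttGGAGGTGGCACAGGGTCTGGGtttgc
Tuba1c loop: ctttGGTGGGGGAACTGGCTCTGGCttcac

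The sequence GGAC, the core of the m6A consensus, lay inside the loop of Tubb4b and of Tubg1. In windows of 100 bases around the cluster centres, GGAC on the transcribed strand was in 36 of 99 exonic tubulin windows in replicate 1 (36.4%) and 35 of 89 in replicate 2 (39.3%), against 30.5% and 30.2% of the windows of all exonic clusters. Among windows of significant tubulin clusters it was in 2 of 6 and 9 of 13, against 27.0% and 25.7% of the windows of all significant exonic clusters. GAACA was in 10.1% of tubulin windows in both replicates, against 10.1% and 9.85%, and AAACC in 3.03% and 2.25%, against 7.94% and 7.65%. Neighbouring tubulin windows overlap and the genes share coding sequence, so these windows are not independent, and a match says only that the letters are present.

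Shared coding sequence also bears on which tubulin gene a read came from. The whole sequence of 25 of the 105 tubulin clusters in replicate 1 and 22 of the 91 in replicate 2 occurs at another place in the genome, and some of these clusters were only a few bases long. With the 50 bases at the cluster centre in place of the whole cluster, 14 and 11 had another copy. Tuba3a and Tuba3b held such copies of each other, and clusters of Tuba1a, Tuba1b and Tuba1c had copies within that trio and in predicted genes. Whole copies involved 1 significant cluster in replicate 1, in Tubb4b, and 3 in replicate 2, of which 2 were in Tuba3b and 1 in Tubb4b. The 50-base copies involved 1 significant cluster in replicate 1, in Tubb4b, and 3 in replicate 2, in Tubb4b, Tuba1b and Tuba3b.

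Genes that work with tubulin or resemble it were counted by the same rule, and their shares stand beside the 39.1% of all protein-coding genes given above. Of 10 other tubulin genes, 5 had clusters, 4 had them in both replicates and 0 were significant in both. Of 8 genes of the γ-tubulin ring complex, which seeds microtubules around the product of Tubg1, 3 were significant in both (37.5%): Nedd1, Tubgcp3 and Tubgcp4. The highest clusters of Tubgcp3 lay in the 3′UTR but at different places in the 2 replicates. Their log2(fold change) was 3.93 from 9 IP and 1 SMInput reads in replicate 1 and 3.07 from 7 IP and 3 SMInput reads in replicate 2. Of 22 genes that fold tubulin, as chaperonin subunits or cofactors, 10 were significant in both (45.5%). Ordered by the lower of the best log2(fold change) values of the 2 replicates, the first 5 were Tcp1, Tbcc, Cct6a, Cct6b and Tbcel. Tcp1 held 3 stretches shared by the replicates, 1 more than Tubb4b. Its highest clusters, at different places in the 2 replicates, reached 2.93 and 3.21.

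Of the 26 genes listed for tubulin modification that had clusters in both replicates, 16 were significant in both (61.5%). The list was not limited to enzymes. Its first 5 genes by the same order were Agbl2, Agbl4, Ttll5, Ttll8 and Vash2. Among them Agbl4 had 653 and 404 clusters, and the number of clusters a gene had was not accounted for. Agbl2, whose product trims glutamates from tubulin tails, reached 4.76 in replicate 1 and 4.17 in replicate 2, from 16 IP and 1 SMInput reads and from 5 IP and 1 SMInput reads. Among 11 actin and actin-like genes with clusters in both, 5 were significant in both (45.5%): Actg2, Actl11, Actl6a, Actl7a and Actrt2. Actl11 had 17 and 13 significant clusters, with 4.69 from 137 IP and 9 SMInput reads at the highest in replicate 1 and 4.43 from 48 IP and 8 SMInput reads in replicate 2. Of 5 tektin genes, for proteins inside axonemal microtubules, 2 were significant in both (40.0%): Tekt3 and Tekt5. The maxima of Agbl2 and of Actl11 lay at different places in the 2 replicates. Several of the maxima given here rest on 1 SMInput read, which can stand for 0, so they were not ranked against the tubulin clusters. The order within a list rests in part on such reads too, and served only to choose which genes to name. The lists were not tested against each other or against the tubulin genes.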

How the data were processed

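The authors sequenced 2 IP and 2 SMInput libraries, trimmed reads (cutadapt), removed rRNA (Bowtie2), mapped to mm10 (STAR), collapsed duplicates by molecular identifier and called clusters (Clipper). The deposited tables list 2 values per cluster, a −log10 P and a log2 fold change over the input that accounts for library size; a −log10 P of 0 marks no enrichment and 400 is the highest value listed. The members and lists were chosen with earlier results of these data known.

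Library sizes are the whole numbers that best fit the listed ratios. Reads were recovered as the whole numbers that give both listed values, with 0 SMInput reads counted as 1. Fisher's exact test was used where a number was under 5 and a chi-square test elsewhere. The recovery gave 1 solution for 99 of 105 and 89 of 91 tubulin clusters. Intervals are exact Clopper-Pearson 95% intervals and cover counting error only. Positions were read from GENCODE M21, and sequences from the same build. Named clusters were, for each gene and replicate, the significant cluster with the highest log2(fold change), or the cluster with most IP reads where none was significant, and all significant clusters of Tubb4b; clusters of the other replicate at the same place, the remaining significant cluster of Tuba3b and the low points of Tubb4b were added after values were seen. In Tuba1b the clusters of replicate 1 with most IP reads tied at 13, and none was named by this rule. Other genes were named when significant in both replicates, at most 5 a list by the lower of their best log2(fold change) values. Python 3.11.15, SciPy 1.17.1, statsmodels 0.14.6, pysam 0.24.0 and Biopython 1.88 were used. Alternatives changed the thresholds, the read minimum, the assignment rule and the treatment of copies.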

Additional observations from a re-analysis of the deposited data

How the results depend on the processing

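Of 48 values recomputed under an alternative, 0 reversed, 19 counts were equal to the main ones and 7 differed by at most 1.5 times. The others are counts that moved further, and medians, given whatever their shift. With both thresholds at 3 in place of 2, significant tubulin clusters fell from 6 to 2 in replicate 1 and from 13 to 0 in replicate 2, genes significant in both from 4 to 0 and shared stretches from 2 to 0. When a log2 ratio of 1 was enough, these became 36, 50, 7 and 17. With only 1 replicate kept, genes ranged from 4 to 8 and stretches from 6 to 13, since a single replicate then sufficed. The exonic median of replicate 1 was 1.24; it stood at 1.24 with at least 10 IP reads, a change in the last digits, 1.23 without clusters that have a whole copy elsewhere, 1.28 with introns, 1.26 without Tubb4b and 1.17 without copies of 50-base windows, an alternative added after seeing the data. In replicate 2 it moved from 1.24 to 1.27 with at least 10 IP reads, 1.22 without whole copies, 1.25 with introns and 1.25 without 50-base copies. Without Tubb4b the median of replicate 2 stayed at 1.24. Adjusted P values and assignment by exon or by any overlap left the counts of clusters, genes and shared stretches as they were, and a wider overlap between replicates left the 2 shared stretches. Without whole copies, 5 and 10 significant clusters and 3 genes were left, with Tuba3b lost, while without 50-base copies 5 and 10 clusters and 4 genes were left, Tuba3b among them. A minimum of 10 IP reads left 6 and 9 significant clusters and 3 genes, without the clusters of few reads in Tuba1a, Tuba1b and Tuba4a in replicate 2.

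In the deposited values each IP is paired with its own SMInput. With the replicate as a block (Mantel-Haenszel over the reads of 86 overlapping tubulin cluster pairs, added after seeing the data), 5 stretches passed in place of 2, since the pooled ratio no longer had to pass in each replicate. This covers counting error only, and the paired clusters differ in their bounds. Clusters were called on the IP, so bases without a cluster carry no value. Reads that match several tubulin genes could not be followed, because the tables hold no alignments.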
